A study of Mus musculus with 15 samples.

Results

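The genes described here are 10 Kruppel-like factors, Klf1, Klf2, Klf4, Klf5, Klf6, Klf7, Klf9, Klf10, Klf11 and Klf13, chosen by name and grouped as activating members of their family. All 10 of 10 had a transcript cluster of their own, 1 each, among 19938 genes with such a cluster on an Affymetrix mouse array. RNA came from TER119-positive cells of E13.5 fetal liver, isolated with magnetic beads, and 15 samples were hybridised, 1 per array. The 4 genotypes on the FVB/NJ strain were 4 wild-type arrays, 4 labelled Klf8gt/gt, which carry a gene trap in Klf8, 3 labelled Klf3-/-, and 4 labelled Klf3-/- Klf8gt/gt. They are called wild-type, Klf8-trap, Klf3-null and doubly mutant arrays, and the 7 arrays with the Klf3-/- label are the Klf3-deficient ones. The labels do not state whether an array holds 1 embryo or a pool, nor which arrays share a litter, so p-values cover the spread of these samples alone, part of which may be technical.

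Kruppel-like factors bind GC-rich and CACCC-type DNA sites through C2H2 zinc fingers at their C-terminal end, and they differ mainly in the N-terminal part that recruits activators or repressors. KLF1 is the erythroid member. It activates adult beta-globin, genes of haem synthesis and genes of the red cell membrane, and it also activates Klf3 and Klf8, whose products bind the same kind of site and recruit the corepressor CtBP. KLF2, KLF4, KLF5, KLF6 and KLF7 are mostly described as activators, whereas KLF9, KLF10, KLF11 and KLF13 also bind the corepressor SIN3A, so that the name "activating" covers factors with either activity. The question for this group of genes is whether any of them changes level when KLF3, KLF8 or both are missing.

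Promoter sequence bears on this question because a CACCC box is the site these factors share. The 250 bases before the RefSeq start of the 2 genes whose signal changed below, Klf1 and Klf6, are shown for assembly GRCm38.p6, 5′ to 3′, with matches to CACCC or GATAA on either strand in capitals. The Klf1 window is chr8:84901732-84901981 and the Klf6 window chr13:5861239-5861488, both on the plus strand.
Klf1: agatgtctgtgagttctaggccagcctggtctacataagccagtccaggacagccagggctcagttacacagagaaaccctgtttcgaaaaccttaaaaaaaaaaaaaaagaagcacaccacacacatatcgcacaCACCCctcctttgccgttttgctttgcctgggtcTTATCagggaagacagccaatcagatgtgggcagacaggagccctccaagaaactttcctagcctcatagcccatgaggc
Klf6: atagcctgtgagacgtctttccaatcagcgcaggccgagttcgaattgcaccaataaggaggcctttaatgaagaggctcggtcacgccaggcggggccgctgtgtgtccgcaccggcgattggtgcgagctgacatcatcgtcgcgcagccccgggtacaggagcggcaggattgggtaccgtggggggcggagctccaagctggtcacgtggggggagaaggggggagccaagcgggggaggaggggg
The Klf1 window held 1 CACCC, whose first base lay at position -114 from the start, and 1 GATAA, the core of the GATA factor motif, read on the opposite strand at -80. The Klf6 window held 0 of either, and GC-rich sites, which these factors also bind, were not searched for. The motifs, CACCC with its reverse complement GGGTG and GATAA with TTATC, do not overlap each other. Of 32851 windows of this length in the RefSeq table, 52.0% held a CACCC and 22.6% a GATAA. Of the 10 genes, 8 had an entry there. Klf7 had 3 CACCC matches, Klf2, Klf9 and Klf13 had 1 each, and Klf4 and Klf11 had 0, while GATAA was found only in the Klf1 window among the 8. For comparison, the Klf3 window held 5 CACCC matches and the windows of the 2 Klf8 starts held 1 and 3. A match describes the letters and is not evidence of a bound site.

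The deposited values are log2 signals, and the array medians lay between 6.28 and 6.41. Klf1, Klf2, Klf5, Klf6, Klf7, Klf10, Klf11 and Klf13 were above the median of their array in 15 of 15 arrays and Klf9 in 14 of 15. Klf4 was above it in 3 of 15, so no fold is given for Klf4. No member fell under the lower quartile of any array. Of the erythroid markers, all 9 measured of 12 listed were above the array medians in every group. Markers of other cells were present too, since 14 of 15 macrophage markers (13 in doubly mutant arrays), 6 of 6 hepatocyte markers and 8 or 9 of 9 endothelial markers were above the medians of every array of a group. So were all 6 stroma markers and all 5 megakaryocyte markers measured. The hepatocyte list mean was above the erythroid list mean in every group (12.62 against 12.53 in wild-type and 12.50 against 12.22 in doubly mutant arrays). A signal above the median therefore does not check the erythroid label. The macrophage marker Cd163 was under the lower quartile throughout, as were the lymphoid markers Rag1 and Il7r. In such bulk samples, fewer cells of a type and less RNA per cell cannot be told apart. Y-linked and Xist signals gave 9 male and 6 female arrays, and all 4 wild-type arrays were male. Doubly mutant replicate 1 and Klf8-trap replicate 1 had the lowest endothelial marker means of the 15 (7.85 and 7.81). By this measure they are the pair of arrays said below to stand apart. In mean r with the other arrays of its genotype, doubly mutant replicate 4 was lower still (0.9816, against 0.9818 and 0.9819 in the pair). The Klf3 signal was higher, not lower, in the arrays labelled Klf3-/-, and the cluster may rest on probes outside the deleted part, so it does not check that label. Klf8 lay below the array medians in all 8 Klf3-intact arrays and above them in all 7 Klf3-deficient ones.

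**Figure D1:**
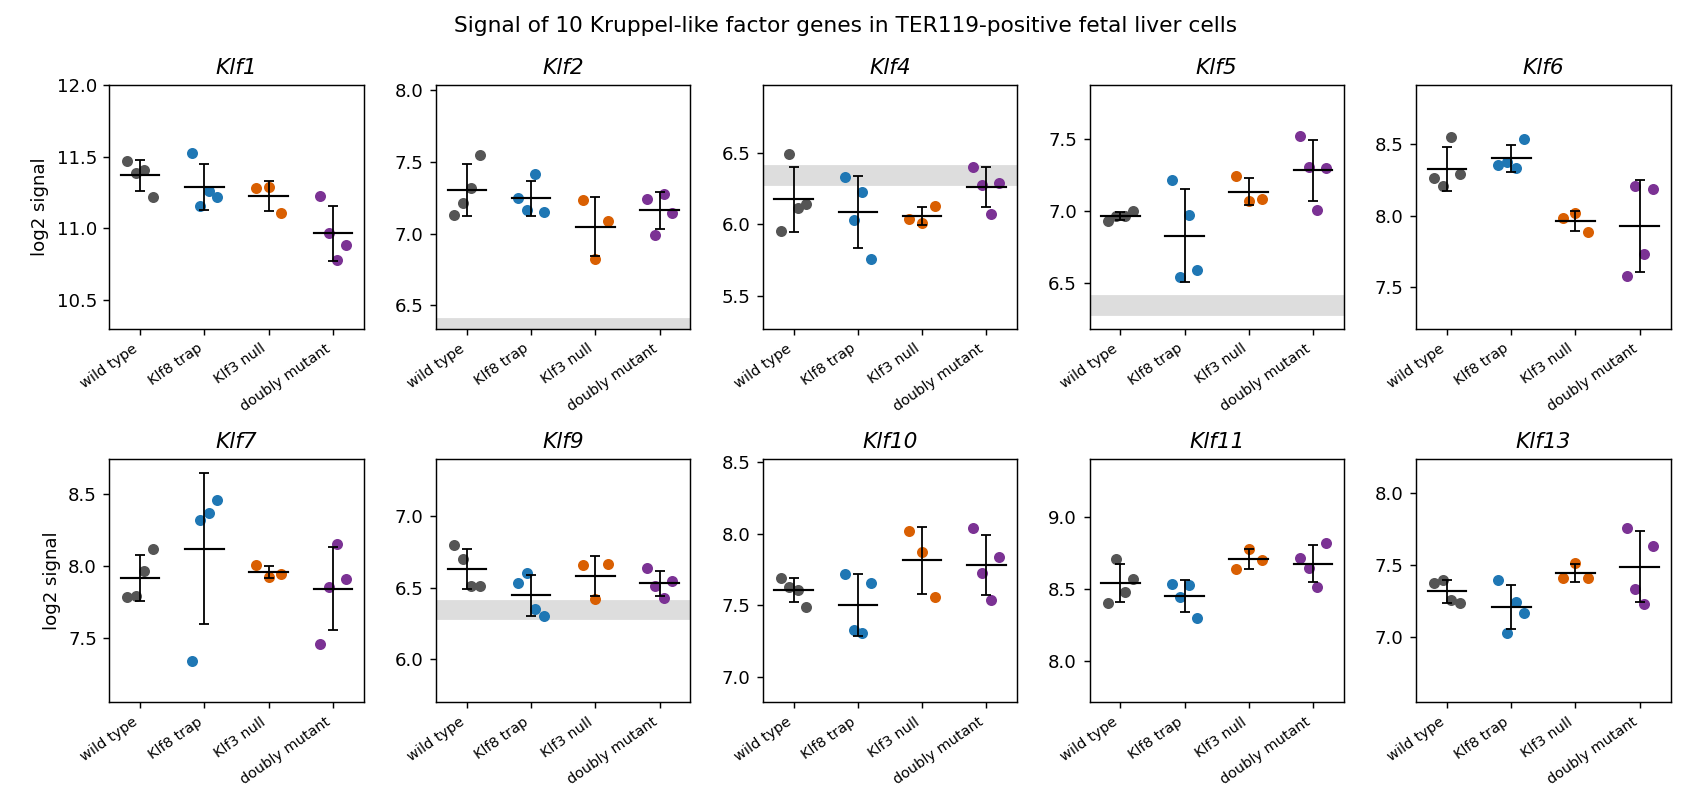
Log2 signal of each of the 10 genes (vertical axis, a span of 1.7 log2 units in each panel) by genotype; each point is 1 array, the horizontal bar is the group mean and the error bar is 1 SD, and the grey band is the range of the array medians. Klf1 is lowest in doubly mutant arrays (10.78 to 11.23), Klf6 is low in Klf3-null arrays (7.89 to 8.02), and Klf7 has 1 Klf8-trap array (7.34) far below the other 3.

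Klf1 fell in the doubly mutant arrays relative to wild type, and no other of the 10 genes passed the threshold in that comparison. The 4 wild-type arrays read 11.47, 11.39, 11.41 and 11.22, and the 4 Klf8-trap arrays 11.52, 11.16, 11.26 and 11.22. The 3 Klf3-null arrays read 11.28, 11.29 and 11.11, and the doubly mutant arrays 11.23, 10.97, 10.78 and 10.88. Thus 3 of 4 doubly mutant arrays lay below every other array of the study, and the fourth, replicate 1, lay within the wild-type range. The group means ran in the order wild type (11.37 ± 0.11, SD, n = 4), Klf8 trap (11.29 ± 0.16, n = 4), Klf3 null (11.23 ± 0.10, n = 3) and doubly mutant (10.96 ± 0.19, n = 4). The last step, from Klf3 null to doubly mutant, was -0.26 ± 0.11 (SE; limma, adjusted p = 0.35), and the first, from wild type to Klf8 trap, -0.08 ± 0.11 (adjusted p = 0.75), so neither passed; the middle step was not tested.

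Between the ends of that order, Klf1 fell 1.32-fold (-0.41 ± 0.11 on the log2 scale, 95% interval -0.63 to -0.18, limma with Benjamini-Hochberg adjustment, adjusted p = 0.0487). Over all 23410 clusters tested, 1.78% were lower past the threshold in this comparison and 3.3% changed in either direction. The median difference of all clusters was -0.02. An exact two-sided permutation of the 8 arrays gave p = 0.0571, where the smallest possible is 0.0286. The call rests on a narrow margin: of 29 alternatives 10 kept it (adjusted p between 0.00297 and 0.49 over the 29), and the difference was negative in all 29. Leaving out any of 12 of the 15 arrays ended it. Adjusted p was 0.0817, 0.156 and 0.0786 without doubly mutant replicates 2, 3 and 4, and 0.0674, 0.0671 and 0.0581 without Klf3-null replicates 1, 2 and 3. It was 0.0586, 0.0691 and 0.0628 without Klf8-trap replicates 2, 3 and 4, and 0.148, 0.122 and 0.133 without wild-type replicates 1, 2 and 3. Without doubly mutant replicate 1 the difference was -0.49 (adjusted p = 0.00953). With both arrays that stand apart left out it was -0.49 too (adjusted p = 0.00297). Among male arrays alone, 2 doubly mutant and 4 wild-type, it was -0.27 (adjusted p = 0.276).

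Against Klf8-trap arrays Klf1 gave -0.32 ± 0.11 in doubly mutant arrays (adjusted p = 0.107), which passed when doubly mutant replicate 1 was left out (-0.41, adjusted p = 0.0397) or both arrays that stand apart were (-0.34, adjusted p = 0.0486). The Klf3-null arrays alone differed from wild type by -0.14 ± 0.11 (adjusted p = 0.792). The interaction of both genotypes, which asks whether the doubly mutant arrays depart from the sum of the single differences, was -0.18 ± 0.16 for Klf1 (adjusted p = 0.614). So the data do not show that the combined difference exceeds the sum of the separate ones. Averaged over both backgrounds, Klf3-deficient arrays were 0.23 below Klf3-intact arrays (-0.23 ± 0.08, adjusted p = 0.18). Taken as 7 against 8 arrays, Klf1 was 11.08 ± 0.20 (SD) and 11.33 ± 0.13, with an exact permutation p = 0.014. In limma this difference passed in 1 of 28 alternatives, without doubly mutant replicate 1 (-0.28, adjusted p = 0.0496).

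Klf1 followed the erythroid markers from array to array. Across the 15 arrays its Pearson r with the mean of the 9 erythroid markers was 0.93, and 0.94 for deviations from the group means. Without both arrays that stand apart the within-group value was 0.84. Other lists went the opposite way within groups, at -0.86 for the hepatocyte mean and -0.84 for the endothelial mean. These were -0.66 and -0.63 without both arrays. Over all 15 arrays they were -0.14 and -0.37. The marker means and Klf1 come from the same arrays, and 5 of the 9 erythroid markers are themselves KLF1-activated genes on the list used below. Each r is therefore a description. The erythroid marker mean ranged from 12.40 to 12.63 in wild-type and from 12.01 to 12.53 in doubly mutant arrays. Of these 9 markers, 0 passed the threshold in the doubly mutant comparison, 6 had an unadjusted p under 0.05 (17.9% of all clusters did), 9 of 9 were below 0, and the median difference was -0.34. With that mean added to the fit, an alternative that was chosen once values were known, the Klf1 difference between doubly mutant and wild-type arrays was -0.13 ± 0.08 (adjusted p = 0.49). In the same comparison 6 of 15 macrophage markers were lower (list median -1.17) and 2 of 6 stroma markers higher (list median 0.38); with the macrophage mean in the fit the Klf1 difference was -0.53 ± 0.16 (adjusted p = 0.127), and the part of the stroma markers was not tested.

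**Figure D2:**
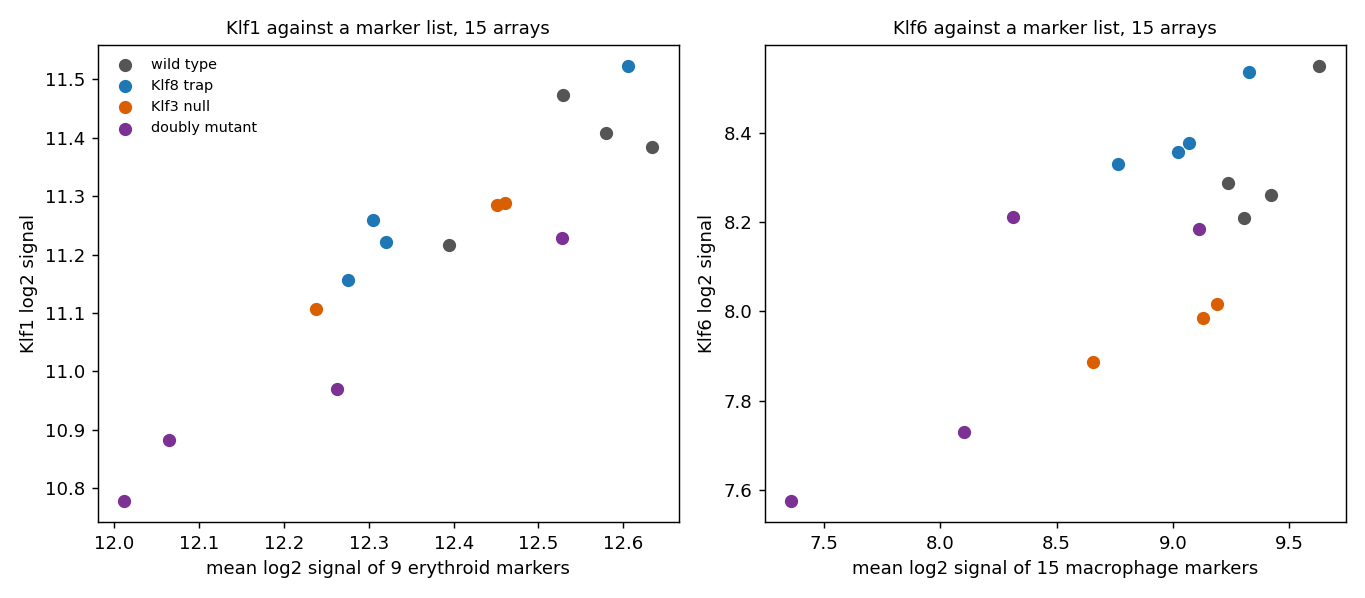
Left, Klf1 log2 signal against the mean log2 signal of 9 erythroid markers; right, Klf6 log2 signal against the mean of 15 macrophage markers; each point is 1 of 15 arrays, coloured by genotype. Klf1 rises with the erythroid mean over all genotypes (r = 0.93), and Klf6 with the macrophage mean (r = 0.78), with the 3 Klf3-null arrays below the Klf8-trap arrays at a like macrophage level.

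Genes most like Klf1 were sought among 11622 other clusters with a mean above every array median. The 5 with the highest Pearson r over the 15 arrays were Eef2k, which encodes the kinase of translation elongation factor 2 (r = 0.98), the magnesium transporter gene Nipa1 (0.97), the phosphoinositide kinase gene Pip5k1b (0.96), Eipr1, whose product works in endosomal recycling (0.96), and the phosphatase gene Ptp4a3 (0.96). Their r of deviations from group means ran from 0.90 to 0.96. Eef2k differed between doubly mutant and wild-type arrays by a log2 difference of -0.99 ± 0.20 (adjusted p = 0.011). Eipr1 (-0.69, adjusted p = 0.0105), Ptp4a3 (-0.68, adjusted p = 0.0141) and Pip5k1b (-0.84, adjusted p = 0.0374) also fell, and Nipa1 gave -0.69 (adjusted p = 0.0522). These genes were selected for their likeness to Klf1, so their direction is no separate support.

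The genes that act with KLF1 were described from lists. Of 33 KLF1-activated genes, 30 were measured, and in doubly mutant against wild-type arrays 2 rose and 2 fell, where 3.3% of all clusters changed in either direction. In limma 18 of the 30, Klf3 and Klf8 among them, had an unadjusted p under 0.05, against 17.9% of all clusters. The risers were Klf3 and Klf8, the targeted genes, at 1.10 ± 0.12 and 1.93 ± 0.20 on the log2 scale. The water channel gene Aqp1 fell by 0.84 (-0.84 ± 0.12, adjusted p = 9.72e-04) and Nfe2, which encodes the erythroid subunit of the NF-E2 factor, by 0.61 (-0.61 ± 0.14, adjusted p = 0.0283). The list median was -0.26 and 23 of 30 genes were below 0, against a median of -0.02 over all clusters tested. In the same comparison 1 of 10 regulators of Klf1 passed and 4 had an unadjusted p under 0.05. The 1 that passed, Ldb1, the bridging cofactor of the GATA1 and TAL1 complex, rose by 0.51 ± 0.07. Tal1 itself gave -0.56 ± 0.15 (adjusted p = 0.0501) and Gata1 -0.43 ± 0.15 (adjusted p = 0.138), and the list median was -0.05. Of 8 KLF1 cofactors 0 passed there and 1 had an unadjusted p under 0.05 (median 0.08; smallest p in Smarce1 and Smarca4, adjusted p = 0.27 and 0.313), while Smarce1, a SWI/SNF subunit, was higher by 0.29 ± 0.07 in Klf3-deficient than in Klf3-intact arrays (adjusted p = 0.0431). Of 3 embryonic globin genes 0 passed and 3 had an unadjusted p under 0.05, as did 17.9% of all clusters (Hba-x 1.36 ± 0.38, adjusted p = 0.0683, and Hbb-bh1 1.33 ± 0.38, adjusted p = 0.0698).

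Klf6 was the other member past the threshold, and it did so when all Klf3-deficient arrays were set against all Klf3-intact ones. KLF6 is a widely expressed activator that is induced quickly by growth signals and injury and is abundant in macrophages. Wild-type arrays read 8.26, 8.21, 8.55 and 8.29, and Klf8-trap arrays 8.36, 8.38, 8.33 and 8.54. Klf3-null arrays read 7.99, 8.02 and 7.89, and doubly mutant arrays 7.58, 8.21, 7.73 and 8.18. The 3 Klf3-null arrays lay below all 8 Klf3-intact arrays, as did 3 of the 4 doubly mutant arrays, and doubly mutant replicate 2 met the lowest wild-type array. Klf6 fell 1.34-fold with Klf3 deficiency (-0.42 ± 0.09 on the log2 scale, 95% interval -0.62 to -0.22, adjusted p = 0.0262). In this comparison 0.931% of all clusters were lower past the threshold and 2.38% changed in either direction. As 7 against 8 arrays, the signals were 7.94 ± 0.23 (SD) and 8.36 ± 0.12, with an exact two-sided permutation p = 3.11e-04, chosen after the value was seen. The smallest p these arrays allow is 1.55e-04.

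The Klf6 difference was of like size on each background, at -0.36 ± 0.14 in Klf3-null against wild-type arrays (adjusted p = 0.523) and -0.47 ± 0.13 in doubly mutant against Klf8-trap arrays (adjusted p = 0.057), and neither passed alone. Doubly mutant against wild-type arrays gave -0.40 ± 0.13 (adjusted p = 0.109). The call for all Klf3-deficient arrays was kept in 19 of 28 alternatives (adjusted p between 0.011 and 0.416 over the 28), and the difference was negative in all 28. It was lost without doubly mutant replicate 3 (adjusted p = 0.0545), without Klf3-null replicates 1, 2 and 3 (0.0643, 0.0588 and 0.0876), without Klf8-trap replicate 4 (0.0605) and without wild-type replicate 3 (0.0644). Without both arrays that stand apart it was -0.37 (adjusted p = 0.0334). Among male arrays it was -0.45 (adjusted p = 0.234).

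Macrophage markers moved with Klf6. The mean of the 15 markers ranged from 9.24 to 9.63 in wild-type, from 8.76 to 9.33 in Klf8-trap, from 8.66 to 9.19 in Klf3-null and from 7.36 to 9.11 in doubly mutant arrays. In Klf3-deficient against Klf3-intact arrays 15 of 15 were below 0 with a median of -0.56, and 1 of 15, Cd5l, fell past the threshold (-1.67 ± 0.24, adjusted p = 7.95e-04). The r of Klf6 with that mean was 0.78 over 15 arrays and 0.83 within groups, and 0.70 within groups without both arrays that stand apart. With the macrophage mean as a covariate the Klf6 difference was -0.19 ± 0.09 (adjusted p = 0.416), and between doubly mutant and wild-type arrays it changed sign to 0.04 (adjusted p = 0.899). With the erythroid mean as a covariate the Klf6 difference between Klf3-deficient and Klf3-intact arrays was -0.46 ± 0.11 (adjusted p = 0.0208). The 3 genes most like Klf6 were Pla2g7, which encodes the platelet-activating factor hydrolase of macrophages (r = 0.92), the sorting nexin gene Snx18 (0.91) and the lysosomal protease gene Ctsh (0.91). They differed between Klf3-deficient and Klf3-intact arrays by -0.80, -0.50 and -0.77 (adjusted p = 0.00328, 0.00277 and 0.00868).

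**Figure D3:**
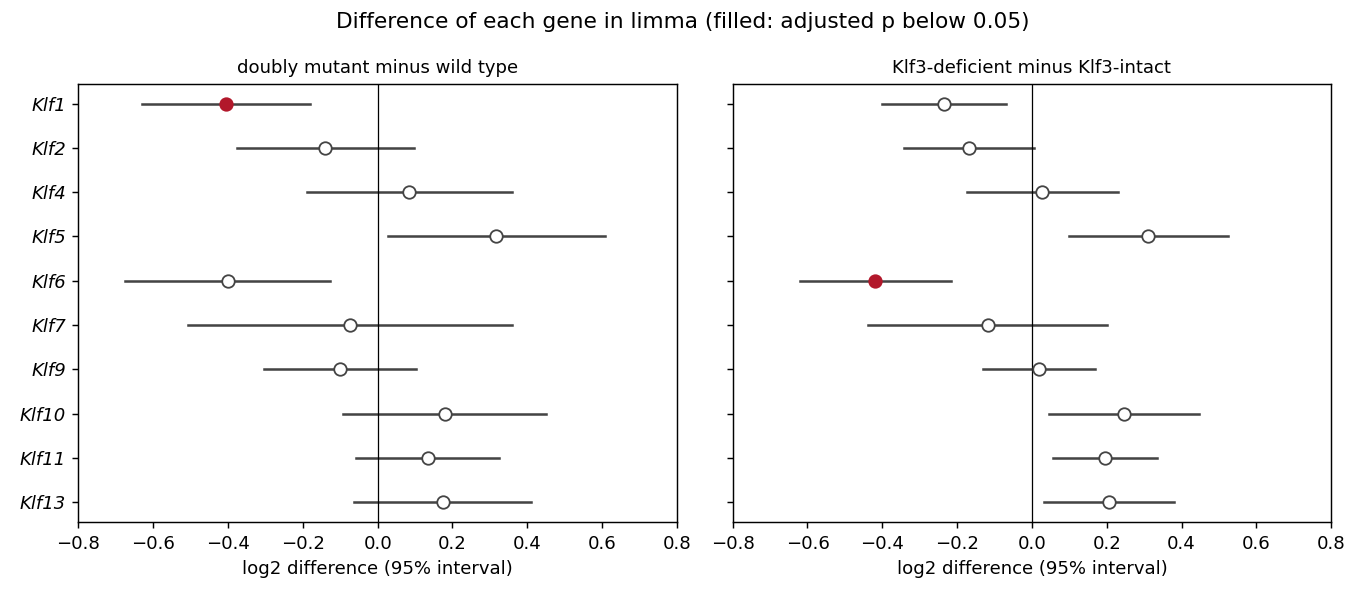
Log2 difference with its 95% interval (horizontal axis) for each of the 10 genes, in doubly mutant minus wild-type arrays (left) and Klf3-deficient minus Klf3-intact arrays (right); filled points have an adjusted p below 0.05 in limma. Klf1 at -0.41 is the filled point on the left and Klf6 at -0.42 the one on the right, while Klf5, Klf10, Klf11 and Klf13 lie above 0 in both panels.

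Klf5, Klf10, Klf11 and Klf13 had higher means in both Klf3-deficient groups than in both Klf3-intact groups, and none of them passed the threshold. Klf5, best known from epithelium and smooth muscle and from self-renewing cells, read 6.93, 6.97, 6.97 and 7.003 in wild-type and 7.22, 6.54, 6.97 and 6.59 in Klf8-trap arrays. It read 7.24, 7.07 and 7.09 in Klf3-null and 7.52, 7.31, 7.01 and 7.30 in doubly mutant arrays. All 7 Klf3-deficient arrays were thus above all 4 wild-type arrays, but Klf8-trap replicate 1, at 7.22, was above 3 of the 7. The margin was narrow, at 7.005 in doubly mutant replicate 3 against 7.003 in wild-type replicate 4. The share of all clusters separated in this way was not counted. The Klf5 difference between Klf3-deficient and Klf3-intact arrays was 0.31 ± 0.10 (95% interval 0.10 to 0.52, adjusted p = 0.159). It passed in 4 of 28 alternatives, among them the fit without Klf8-trap replicate 1 (0.38, adjusted p = 0.027).

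Klf10 and Klf11 encode the TGF-beta-inducible early factors. Klf10 was 7.60 ± 0.08 in wild type, 7.50 ± 0.21 with the Klf8 trap, 7.81 ± 0.24 in Klf3-null and 7.78 ± 0.21 in doubly mutant arrays. Of 7 Klf3-deficient arrays 5 lay above every Klf3-intact array. The remaining pair, Klf3-null replicate 3 (7.55) and doubly mutant replicate 3 (7.53), lay within the wild-type range. The Klf10 difference was 0.25 ± 0.09 (adjusted p = 0.278). Klf11 read 8.54 ± 0.13, 8.45 ± 0.11, 8.71 ± 0.07 and 8.67 ± 0.13 in wild-type, Klf8-trap, Klf3-null and doubly mutant arrays. For Klf11 only 3 of 7 Klf3-deficient arrays lay above every Klf3-intact array, the highest of which was wild-type replicate 2 (8.71). The lowest Klf3-deficient array, doubly mutant replicate 3 (8.51), lay below several Klf3-intact ones. The Klf11 difference was 0.20 ± 0.07 (0.195 before rounding, adjusted p = 0.19). Like Klf10 and Klf11, the other TGF-beta-responsive genes did not pass the threshold. Of 8 measured 0 were called and 0 had an unadjusted p under 0.05 (median 0.02). The smallest p were in Smad7 and Id1 (adjusted p = 0.665 and 0.705).

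Klf13 encodes a factor first described as a T cell regulator and also expressed in erythroid cells. It read 7.38, 7.39, 7.26 and 7.23 in wild-type, 7.39, 7.03, 7.24 and 7.16 in Klf8-trap and 7.41, 7.52 and 7.41 in Klf3-null arrays. The doubly mutant arrays read 7.76, 7.34, 7.23 and 7.63, so that replicates 1 and 4 lay above every other array and replicates 2 and 3 below all Klf3-null arrays. The Klf3-null arrays were above all wild-type arrays, which was also so of Klf5, while those of Klf6 were below. These 3 of 10 members compare with 14.5% of all clusters whose Klf3-null and wild-type arrays do not overlap. The Klf13 difference with Klf3 deficiency was 0.21 ± 0.08 (adjusted p = 0.31).

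Klf13 varied with the other 3 within genotypes, whereas Klf10 and Klf11 were nearly unrelated (r = 0.10). For deviations from group means over 15 arrays, r was 0.72 between Klf5 and Klf13, 0.68 between Klf10 and Klf13 and 0.58 between Klf11 and Klf13. Klf1 was likewise correlated with Klf5 (0.75), Klf10 (0.80) and Klf13 (0.76), although its group means went the other way with Klf3 deficiency. Klf7 was negative with all 5, from -0.39 with Klf11 to -0.84 with Klf1. Several of these were nearer 0 without both arrays that stand apart, where r was 0.39 between Klf1 and Klf5, 0.45 between Klf1 and Klf13, 0.49 between Klf5 and Klf13, and 0.13 between Klf5 and Klf10. Of the pairs with Klf7 it was then -0.63 with Klf1, -0.50 with Klf13, -0.39 with Klf11, -0.22 with Klf10 and -0.21 with Klf5. The r between Klf11 and Klf13 was 0.60 without them, and between Klf1 and Klf10 0.66. These values share arrays and normalization and are descriptions. Klf5, Klf10 and Klf13 followed the erythroid mean within groups (r = 0.68, 0.77 and 0.66) and were negative with the hepatocyte mean (-0.67, -0.68 and -0.75). Without both arrays that stand apart these were 0.28, 0.59 and 0.20 with the erythroid mean and -0.29, -0.50 and -0.37 with the hepatocyte mean. With the erythroid mean in the fit, an alternative that was chosen once values were known, their differences with Klf3 deficiency passed the threshold: Klf5 0.44 ± 0.09 (adjusted p = 0.00902), Klf10 0.38 ± 0.08 (adjusted p = 0.00911) and Klf13 0.31 ± 0.08 (adjusted p = 0.0325). Klf11 gave 0.23 ± 0.07 under it (adjusted p = 0.103).

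**Figure D4:**
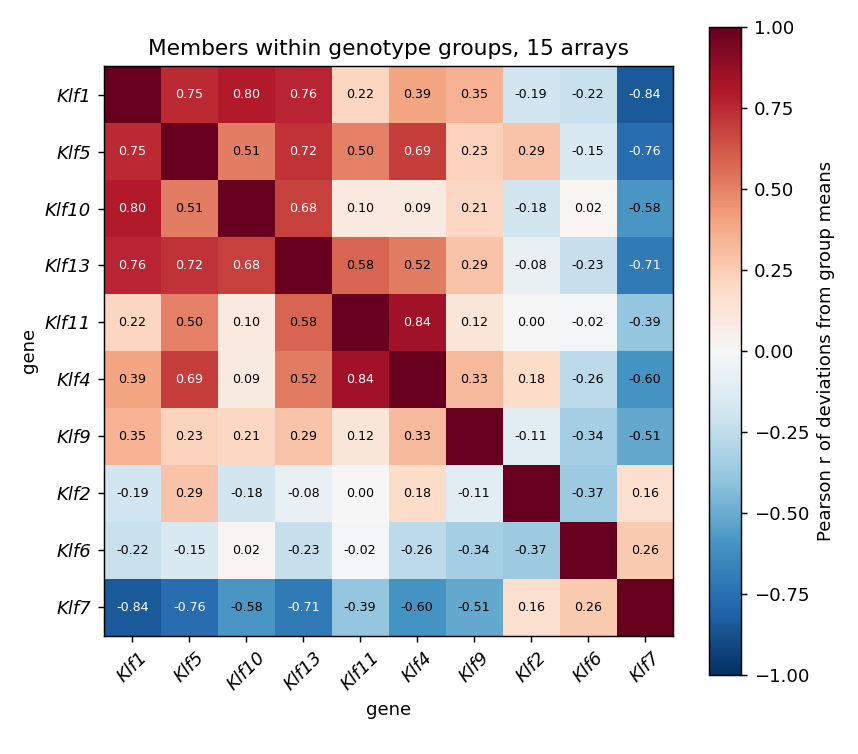
Pearson r between each pair of the 10 genes (both axes), computed over 15 arrays from deviations from genotype group means; red is positive and blue negative, and each off-diagonal cell prints its r. Klf1, Klf5, Klf10 and Klf13 form a positive block (0.51 to 0.80) and Klf7 is negative with each of them. Klf7 is also negative with Klf4 (-0.60), Klf9 (-0.51) and Klf11 (-0.39). The highest r is between Klf4 and Klf11 (0.84, and 0.84 without both arrays that stand apart).

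Klf7, an activator best known from neurons, had the widest spread of the 10 genes among Klf8-trap arrays (SD 0.53) and the narrowest among Klf3-null arrays (SD 0.04). Wild-type arrays read 7.78, 7.79, 7.97 and 8.12, and Klf3-null arrays 8.01, 7.92 and 7.94. The Klf8-trap arrays read 7.34, 8.32, 8.37 and 8.46 and the doubly mutant arrays 7.45, 7.86, 8.15 and 7.91, so that replicate 1 was the lowest in both groups. These are the arrays that stand apart by their low endothelial means. The r of Klf7 with the endothelial mean was 0.84 over all arrays and 0.87 within groups, and 0.80 within groups without both arrays. Other lists were related to Klf7 within groups too: 0.75 for the hepatocyte, 0.63 for the megakaryocyte and -0.79 for the erythroid mean. Without both arrays the hepatocyte value was 0.35 within groups. Over the 13 arrays left it was 0.87, against 0.70 for the endothelial mean. Klf8-trap arrays exceeded wild type by 0.21 ± 0.20 (adjusted p = 0.662), and without Klf8-trap replicate 1 Klf7 was higher there by 0.47 ± 0.13 (adjusted p = 0.0475). Hepatocyte markers also had their highest values in the other 3 Klf8-trap arrays, between 13.21 and 13.36, against 12.47 to 12.76 in wild type. With the erythroid mean as a covariate, the Klf7 difference in Klf8-trap arrays was -0.04 ± 0.14.

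Klf2, Klf4 and Klf9 stayed within their spread. Klf2, which is needed with Klf1 for embryonic globin expression and is prominent in endothelium, read 7.30 ± 0.18 in wild-type, 7.25 ± 0.12 in Klf8-trap, 7.05 ± 0.21 in Klf3-null and 7.16 ± 0.13 in doubly mutant arrays. Its difference with Klf3 deficiency was -0.17 ± 0.08 (95% interval -0.34 to 0.01, adjusted p = 0.473). Klf4, a factor of epithelium and monocytes, read 6.17 ± 0.22, 6.09 ± 0.25, 6.06 ± 0.06 and 6.26 ± 0.14 in the same order, near the array medians. Klf9, a glucocorticoid- and thyroid-hormone-responsive gene, read 6.63 ± 0.14, 6.45 ± 0.14, 6.58 ± 0.14 and 6.53 ± 0.09, with a difference of 0.02 ± 0.07 for Klf3 deficiency. Klf2, Klf4, Klf6 and Klf10 are also induced early by stimulation, as are the genes of the immediate-early list. Of 14 such genes 0 passed in Klf3-deficient against Klf3-intact arrays, 5 had an unadjusted p under 0.05 (11.3% of all clusters did) and the median was 0.12 (smallest p in Btg2, -0.37, and Ier2, 0.25, adjusted p = 0.123 and 0.13). Of 6 glucocorticoid-responsive genes 0 passed and 0 had an unadjusted p under 0.05 (median 0.01).

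The comparison of Klf8-trap with wild-type arrays gave no called member. In limma 0 of 10 passed, 0 of 10 had an unadjusted p under 0.05, and differences ran from -0.19 in Klf9 to 0.21 in Klf7, with intervals reaching -0.43 and 0.64. The background there was 0 of 23410 clusters past the threshold (0%), with 13.4% at an unadjusted p under 0.05. Klf3-null against wild-type arrays called 0 of 10 members and 0.585% of all clusters. At an unadjusted p under 0.05 there were 1 member, Klf6, and 7.83% of all clusters. Doubly mutant against Klf3-null arrays called 0 of 10 members and 0.047% of all clusters, and at an unadjusted p under 0.05 there were 1 member, Klf1, and 12.9% of clusters. Doubly mutant against Klf8-trap arrays called 0 of 10 members and 3.35% of all clusters, against 6 members and 18.7% of clusters at an unadjusted p under 0.05. The interaction called 0 of 10 members and 0.00427% of all clusters, and 0 members and 14.4% of clusters had an unadjusted p under 0.05. For Klf3 deficiency 6 of 10 members had an unadjusted p under 0.05, against 11.3% of all clusters. Of these, Klf1 and Klf6 were lower and Klf5, Klf10, Klf11 and Klf13 higher. For doubly mutant against wild-type arrays there were 3 members and 17.9% of clusters. All these comparisons share arrays with each other and are not independent.

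The rest of the family was measured for reference. Of 7 other Kruppel-like factors, Klf3 and Klf8 were higher in the doubly mutant arrays than in wild type, and 5 did not pass; among these Klf12, which also binds CtBP, gave 0.90 ± 0.27 (adjusted p = 0.0879). Of 8 Sp factors, the relatives that bind GC boxes, 0 passed, 1 had an unadjusted p under 0.05 and 8 of 8 were below 0, with a median of -0.10 (Sp4 -0.36 ± 0.10, adjusted p = 0.063; Sp1 -0.11 ± 0.07, adjusted p = 0.453). For the 10 members the same comparison had 5 differences above and 5 below 0 and a median of 0.01. No member was higher past the threshold in any of the 7 contrasts as fitted, and the intervals of the 10 members in the doubly mutant comparison reached 0.61 on the upper side.

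**Figure D5:**
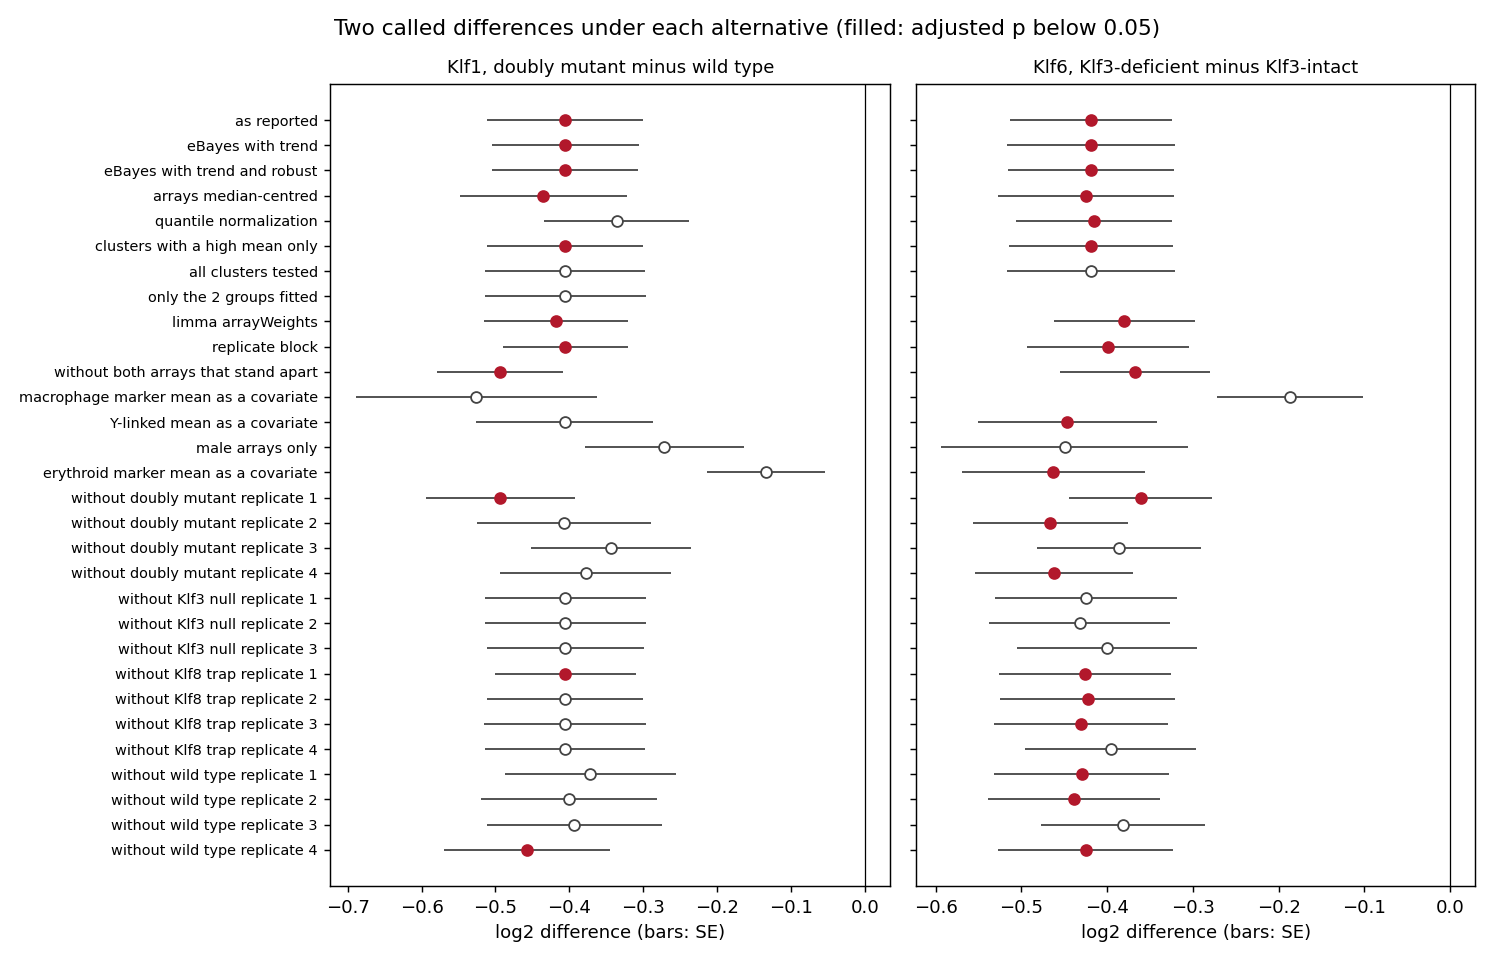
Log2 difference with its SE (horizontal axis) of Klf1 in doubly mutant minus wild-type arrays (left) and of Klf6 in Klf3-deficient minus Klf3-intact arrays (right), as reported and under each alternative (vertical axis); filled points have an adjusted p below 0.05. All points are below 0; Klf1 is nearest to 0 with the erythroid mean as a covariate (-0.13) and Klf6 with the macrophage mean (-0.19).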

How the data were processed

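The authors deposited a log2 signal for each transcript cluster on each array. RMA and Partek are named, with no version, per the submitters' processing notes, and no source used here gives the genome build of the platform. Of 35556 clusters, the 23410 with at least 1 gene symbol in the platform annotation of 2016 were tested, and no gene was named from the 1621 with several. With limma 3.58.1 (R 4.3.3), 1 mean was estimated for each genotype over the 15 arrays (eBayes without a trend, 7 contrasts, two-sided). P-values were adjusted by Benjamini and Hochberg over all clusters of a contrast, with a threshold of 0.05, and intervals are 95% intervals. The number of arrays limits precision (median SE 0.11 for groups of 4). The procedure was tested on simulated data. Genes named are the 10 members, Klf3, Klf8, up to 4 called genes of a list or the 2 with the smallest p, and the genes most like a called member; others were chosen after their values were seen. Members and lists were chosen with earlier results of these data known. Arrays with the same replicate number had an r of deviations of 0.11 to 0.53 in 4 of 4 pairs of doubly mutant and Klf8-trap arrays. It was 0.07 to 0.16 in pairs of doubly mutant and Klf3-null arrays, and pairs with wild-type arrays had values on both sides of 0. Arrays with unlike numbers were not compared, so whether the numbers pair arrays was not tested. Sequences are RefSeq's.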

Additional observations from a re-analysis of the deposited data

Results flagged for a closer look

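Klf7 in Klf8-trap replicate 1 stood far from the rest of its group. It read 7.34, against 8.32 to 8.46 in the other 3 arrays, and its gap was 0.872 of the group's range, above Dixon's critical value for 4 samples. Of 36 groups of 4 arrays examined (12 genes in 3 genotypes), this was the 1 that stood out, and chance gives about 1 in 20 such groups.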

How the results depend on the processing

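The Klf1 call was set against 29 alternatives and the Klf6 call against 28, of which 15 each leave out 1 array. Klf1 in doubly mutant against wild-type arrays missed the threshold with quantile normalization (-0.34), with all clusters tested and with only those groups fitted (-0.41 each), with the macrophage (-0.53), Y-linked (-0.41) or erythroid mean (-0.13) as a covariate and among male arrays (-0.27). Leaving out 1 array gave -0.49 to -0.34. Averaged over Klf3 deficiency, Klf1 gave -0.28 to -0.20 with 1 array left out.

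Counts of called members moved as follows. The share of all clusters called under each alternative is not given beside them, so these counts do not show anything particular to the members. In doubly mutant against wild-type arrays the 1 became 0 under those settings, except that 1 member, Klf5 in place of Klf1, passed with the erythroid covariate. It was 0 to 1 with 1 array left out. Without doubly mutant replicate 4 the 1 was Klf6 in place of Klf1 (limma, adjusted p = 0.0456). For Klf3 deficiency the 1 became 0 with all clusters tested, the macrophage covariate or male arrays, 2 with array weights or without both arrays that stand apart, 4 with the erythroid covariate, and 0 to 2 with 1 array left out. In doubly mutant against Klf8-trap arrays the 0 became 1 for clusters with a high mean or with array weights, 3 without both arrays or among males, 5 with the erythroid covariate, and 0 to 2 with 1 array left out. In Klf8-trap against wild-type arrays it became 1 with array weights or without both arrays, and 0 to 1 with 1 array left out.

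Of 70 member differences over 7 contrasts, 68 were not called, and 24 of these took the other sign in at least 1 alternative. Among those given in the report, the macrophage covariate turned Klf4 (-0.088), Klf6 (0.043) and Klf7 (0.16) in doubly mutant against wild-type arrays, and Klf4 (-0.062), Klf7 (0.0055) and Klf9 (-0.025) for Klf3 deficiency. Leaving out 1 array gave -0.0062 to 0.059 for Klf9 and -0.027 to 0.080 for Klf4 for Klf3 deficiency. Klf7 in doubly mutant against wild-type arrays ran from -0.18 to 0.057 with 1 array left out, and was 0.057 without both arrays that stand apart. Male arrays turned Klf10 in Klf3-null against wild-type arrays (-0.049) and the Klf1 interaction (0.15), and the erythroid covariate turned Klf1 (0.055) and Klf7 (-0.040) in Klf8-trap against wild-type arrays. The causes were not tested. With the replicate block, Klf1 in doubly mutant against wild-type arrays kept -0.41 (adjusted p = 0.0181) and Klf6 for Klf3 deficiency gave -0.40 (adjusted p = 0.0426); the block changed no call among the differences given. Klf4 lies below the mean required by the filter on low clusters, so it has no value there.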
